A study of Mus musculus with 8 samples.

Results

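The genes described here are Tnfaip2, a gene whose RNA was lower in every alphaTC6 library given siRNAs against Klf4 than in any control library, and 9 further genes of the TNF-induced (TNFAIP) and NF-kB groups: Tnfaip1, Tnfaip3, Tnfaip8, Rela, Relb, Nfkb1, Nfkb2, Nfkbia and Nfkbib. Tnfaip2 was chosen because of its fall after Klf4 siRNA, so its difference between treatments is given as a description with no test. The other 9 were chosen by name. All 10 are among the 55536 genes of the count table, and all 10 were among the 16333 genes with enough counts to be tested. The cells were alphaTC6, a line of mouse pancreatic alpha cells of wild-type genotype per the labels; alphaTC lines come from glucagon-producing tumours raised with a viral oncogene under the glucagon gene promoter, so they model dividing tumour cells. Both groups were reverse transfected for 48 h with RNAiMax Lipofectamine. The controls (4 libraries) received a scramble siRNA and the treated cells (4 libraries) an siRNA pool against Klf4, a zinc finger transcription factor. The question was how Klf4 regulates gene expression in alpha cells. Batch 1 held 2 scramble libraries (replicates 1 and 2) and 3 Klf4 siRNA libraries (replicates 1, 2 and 4). Batch 2 held 2 scramble libraries (replicates 3 and 4) and 1 Klf4 siRNA library (replicate 3). What the batches were is not said beyond their numbers, and the p-values measure the spread between these libraries.

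NF-kB is a group of dimeric transcription factors built from Rel proteins and from the products of Nfkb1 and Nfkb2. In resting cells IkB proteins, encoded by Nfkbia and Nfkbib among others, hold the dimers in the cytoplasm. Signals such as TNF or interleukin-1 activate the IkB kinase, IkB is degraded, and the dimers enter the nucleus and switch on genes that include the pathway's own brakes, Nfkbia and Tnfaip3. A slower branch processes the Nfkb2 product and acts through Relb. In islets the pathway is known mainly for its part in the response to inflammatory cytokines. The TNFAIP genes share a name, given for induction by TNF, and not a protein family.

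NF-kB dimers bind words of 10 bases, and 2 of the genes carry such a word in the RefSeq promoter windows (GRCm38.p6, 250 bases before to 50 bases after a start site). They are shown because theirs were the windows that held the word. The letters searched were GGGANNTTCC on both strands, so the word can also read as its reverse complement. Windows were given for 7 of the 10 genes (10 windows); Nfkb1, Relb and Tnfaip8 had none. Capitals mark the word, and 10 bases are shown on either side, written 5′ to 3′ along the gene's strand.
Nfkbia, chr12:55492657-55492686, minus strand, word starting at -29 from the start site, on the opposite strand: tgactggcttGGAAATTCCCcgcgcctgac
Nfkb2, chr19:46305449-46305478, plus strand, word starting at -236, on the opposite strand: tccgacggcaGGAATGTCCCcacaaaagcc
Nfkb2, chr19:46305695-46305724, plus strand, word starting at 11 bases into the transcript of one start site and at -225 from the next: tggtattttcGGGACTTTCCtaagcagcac
Of all 32851 promoter windows, 1.47% held the word. The windows of Tnfaip2, Tnfaip1, Tnfaip3, Rela and Nfkbib did not hold these letters. A pair of words bound by KLF proteins was searched in the same way: GGGTGTG, held by 7.95% of all windows, was in none of the 10, and GGGCGTG, held by 8.44%, was in 2 windows of Nfkb2. The single Tnfaip2 window held neither.

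Depth, markers and the targeted gene were checked first. Libraries had 45954151 to 64185987 counts. Klf4 RNA was 35.1 to 46.8 CPM (counts scaled to the TMM-adjusted library total) in scramble and 11.5 to 19.8 CPM in Klf4 siRNA libraries, which is -1.33 on the log2 scale (standard error, SE, 0.17). The 9 alpha cell markers summed to 5119 to 13190 CPM in scramble and 4951 to 11880 CPM in Klf4 siRNA libraries. Of 8 beta cell markers, Ins1, Ins2, Pdx1 and Ucn3 had 0 counts in all 8 libraries; the list summed to 121.3 to 152.3 CPM in scramble and 107.2 to 139.2 CPM in Klf4 siRNA libraries. Among the 7 immune cell markers Adgre1 was at 0, and their sum was 3.36 to 4.74 CPM in scramble and 3.21 to 4.38 CPM in Klf4 siRNA libraries; the sums of 4 endothelial markers were at most 0.484 CPM and those of 4 mesenchymal markers between 12.1 and 22.1 CPM. Other islet hormone cell markers (4) summed to at most 0.453 CPM and acinar and duct markers (5) to 7.32 to 11.1 CPM. The part of such markers in the results was not tested.

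Scaled by exon length, the levels in scramble libraries spanned a wide range. Rela, which encodes the main activating subunit, was highest at 27.4 ± 2.28 CPM per kb (SD, n = 4). Nfkbib followed at 12.0 ± 0.339, Tnfaip1 at 10.2 ± 0.252 and Nfkbia at 7.98 ± 0.619 CPM per kb. Nfkb2 was at 3.40 ± 0.116 and Nfkb1 at 2.44 ± 0.0706 CPM per kb. Tnfaip2 (1.69 ± 0.225) and Relb (1.51 ± 0.271) were neighbours whose difference is within their spread. Tnfaip3 was at 0.312 ± 0.0561 and Tnfaip8 lowest at 0.0661 ± 0.0123 CPM per kb. After Klf4 siRNA the order changed at 1 place: Relb was at 2.06 ± 0.256 and Tnfaip2 at 0.917 ± 0.0881 CPM per kb. The lengths are unions of all annotated exons, so a gene with long minor transcripts reads low.

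**Figure D1:**
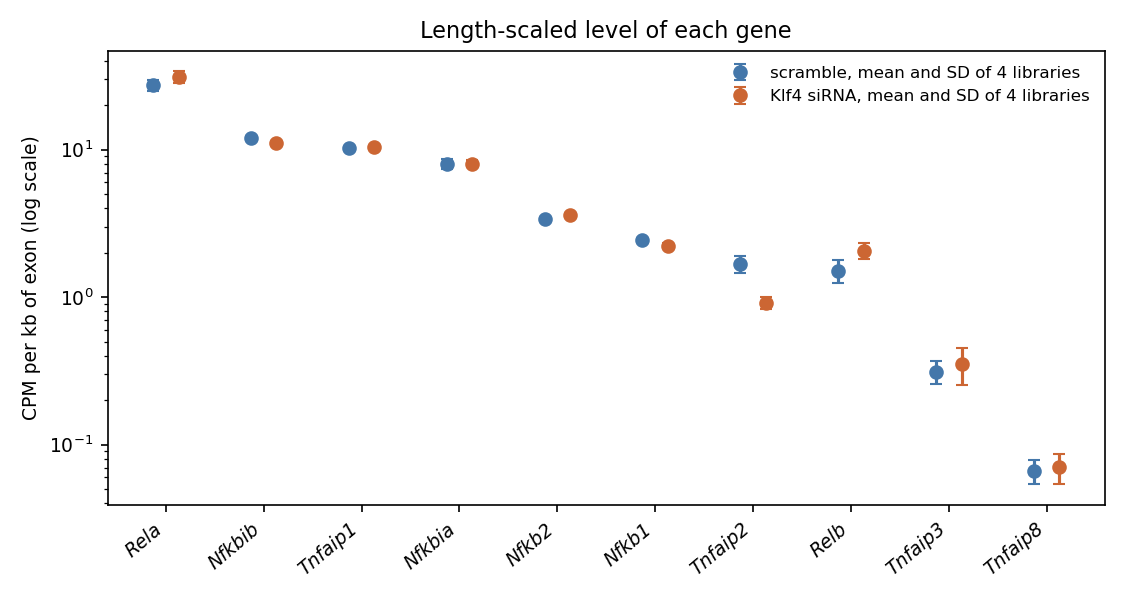
Length-scaled level (CPM per kb of exon, log axis) of the 10 genes in scramble and Klf4 siRNA libraries, as mean and SD of 4 libraries. Rela is highest and Tnfaip8 lowest in both groups, and Tnfaip2 and Relb trade places between them.

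Tnfaip2 (ENSMUSG00000021281, chromosome 12, 111442469 to 111455018 of GRCm38, plus strand, up to 12 exons per transcript) encodes a protein related to the exocyst subunit Sec6 and known for its part in membrane protrusions. Its levels were 8.88, 9.63, 7.01 and 8.10 CPM in scramble replicates 1 to 4 and 4.95, 4.83, 3.97 and 4.52 CPM in Klf4 siRNA replicates 1 to 4. The groups were well apart: the lowest control, in batch 2, lay above the highest treated library, in batch 1. The log2 fold change was -0.95 with a SE of 0.08, or 51.9% of the control level, the 12th lowest value among the 16333 genes tested. The difference was -0.95 within batch 1 and -0.92 within batch 2. Raw counts behind these values were 449 to 496 in scramble and 209 to 279 in Klf4 siRNA libraries. With bulk RNA, fewer cells carrying the transcript and less transcript per cell cannot be told apart. The other 9 genes lie on other chromosomes or far from Tnfaip2: on GRCm38 Nfkbia, also on chromosome 12, spans 55489410 to 55492647. Rela (chromosome 19, 5637483 to 5648130) and Nfkb2 (chromosome 19, 46304320 to 46312385) share a chromosome, as do Relb (chromosome 7, 19606217 to 19629438) and Nfkbib (chromosome 7, 28758251 to 28767512). Nfkb1 lies on chromosome 3 (135584655 to 135691547), Tnfaip3 on 10 (19000910 to 19015657), Tnfaip1 on 11 (78522850 to 78536332) and Tnfaip8 on 18. The Tnfaip2 exons share 314 bases with an antisense annotation that had at most 2 counts in any library.

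Of the other 9 genes, 2 passed an edgeR adjusted p of 0.05 between treatments, Relb and Rela, and both were higher after Klf4 siRNA. Of all tested genes 11.7% passed in either direction, 4.88% higher and 6.81% lower. The median log2 fold change of the 9 was 0.03, beside 4.33e-05 for all tested genes. Of these 9, none was lower past the threshold. At an unadjusted p under 0.05 there were 4 of the 9 (Rela, Relb, Nfkb1 and Nfkbib), beside 23.9% of all tested genes. Treated and control libraries were fully apart for 2 of the 9, both with the treated libraries below (Nfkb1 and Nfkbib), beside 10.5% of all tested genes (5.55% below and 4.97% above). Within batch 1, 6 of the 9 were apart, beside 37.5% of all genes: Relb, Rela, Nfkb2 and Tnfaip1 with the treated libraries above and Nfkb1 and Nfkbib below. The sign was the same in both batches for 7 of the 9, the exceptions being Nfkbia and Tnfaip8, and for 64.8% of all genes.

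**Figure D2:**
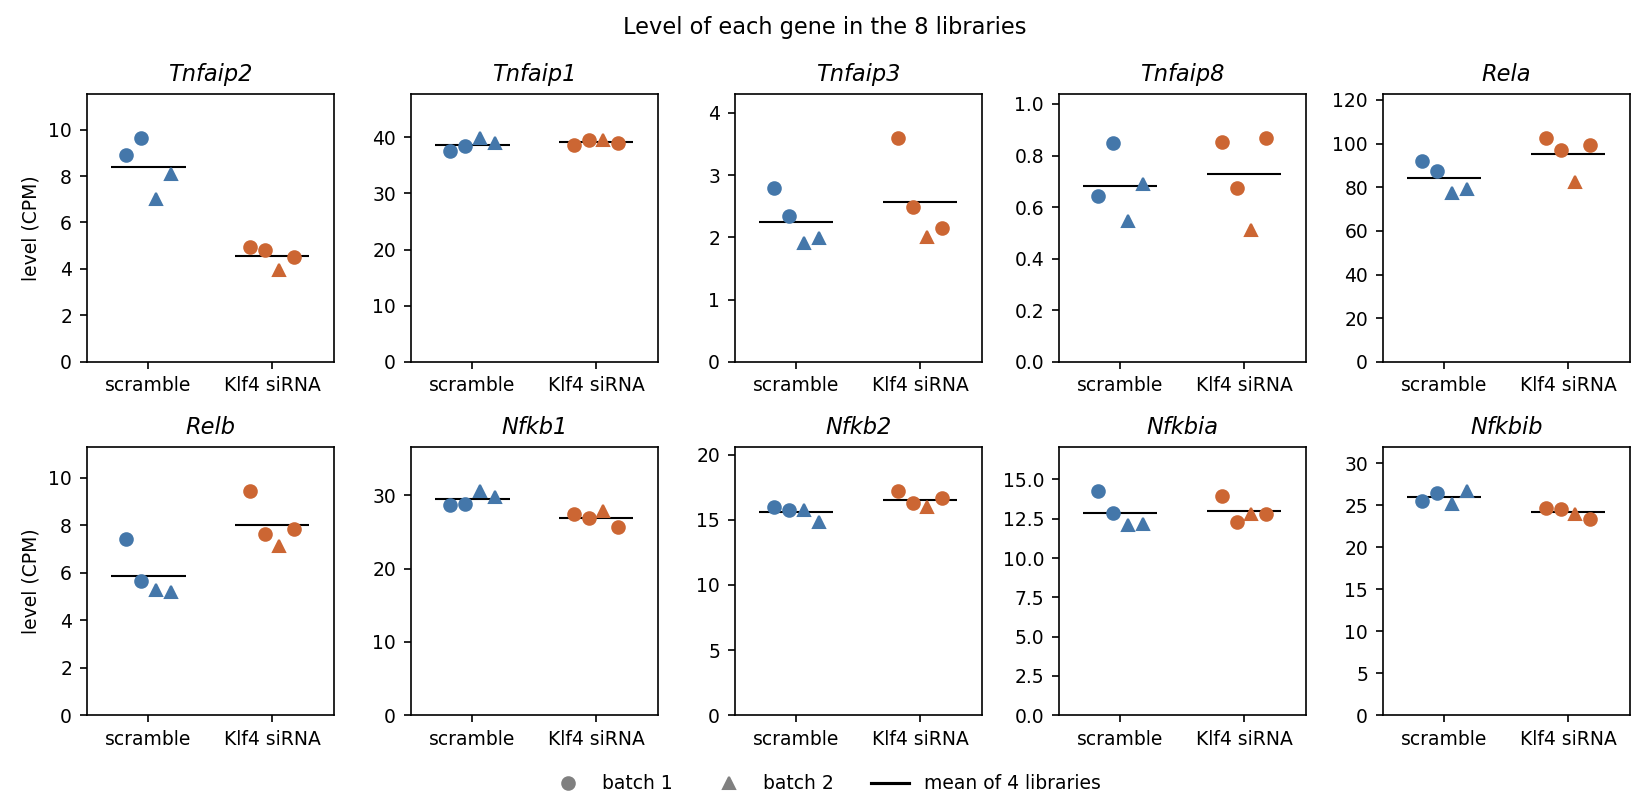
Level (CPM, axis from 0) of each gene in each of the 8 libraries, by treatment, with circles for batch 1, triangles for batch 2 and a line at the mean of 4 libraries. Tnfaip2 is lower in all 4 Klf4 siRNA libraries; Relb is higher within each batch, with scramble replicate 1 at 7.43 CPM above Klf4 siRNA replicate 3 at 7.12 CPM.

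Among the NF-kB subunits, Relb, the partner of the processed Nfkb2 product, rose. It had 7.43, 5.63, 5.26 and 5.20 CPM in scramble replicates 1 to 4 and 9.42, 7.63, 7.12 and 7.84 CPM in Klf4 siRNA replicates 1 to 4. Within each batch the treated libraries were higher, whereas across batches the groups overlapped through scramble replicate 1. The log2 fold change was 0.37 with a SE of 0.09 (edgeR adjusted p = 0.011), at 0.35 within batch 1 and 0.44 within batch 2. Leaving out scramble replicate 2 gave an adjusted p of 0.089 and leaving out Klf4 siRNA replicate 3 one of 0.098; batch 1 alone gave 0.141 and a fit with no batch term 0.139.

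Rela also rose, by less. It had 92.2, 87.4, 77.2 and 79.3 CPM in scramble replicates 1 to 4 and 102.4, 97.0, 82.5 and 99.5 CPM in Klf4 siRNA replicates 1 to 4. The treated libraries were higher within each batch, and the pooled groups overlapped because both treatments were lower in batch 2. The log2 fold change was 0.12 with a SE of 0.03 (edgeR adjusted p = 0.014), at 0.15 within batch 1 and 0.08 within batch 2. Leaving out scramble replicate 2 gave 0.10 on the log2 scale and an adjusted p of 0.148, and a fit with no batch term gave 0.318.

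Nfkb1, which encodes the precursor of the usual partner of Rela, had lower values after Klf4 siRNA but did not pass the threshold. Its levels were 28.7, 28.9, 30.5 and 29.8 CPM in scramble and 27.5, 27.0, 27.8 and 25.6 CPM in Klf4 siRNA replicates 1 to 4. All treated values lay below all control values. The fitted difference was -0.11 on the log2 scale with a 95% interval of -0.19 to -0.03 (edgeR adjusted p = 0.073). Of 17 alternatives 1 passed: among the 10387 genes with a mean of at least 5 CPM the edgeR adjusted p was 0.043. With each library left out in turn it was 0.073 to 0.246. Batch 1 alone gave 0.238 and a fit with no batch term 0.158.

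Nfkb2 had 16.0, 15.7, 15.7 and 14.8 CPM in scramble and 17.2, 16.3, 16.0 and 16.7 CPM in Klf4 siRNA replicates 1 to 4. The treated libraries were higher within each batch, by 0.07 and 0.06 on the log2 scale, and the pooled groups overlapped narrowly. The fitted log2 fold change was 0.07 with a 95% interval of -0.03 to 0.17 (edgeR adjusted p = 0.433). Nfkb2 exons share 299 bases with Psd on the opposite strand, a gene with 7527 to 9868 counts, and 531 bases with AC114539.1, also on the opposite strand, with 231 to 308 counts. The use of strand in counting is not given in the sources used here.

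The IkB genes did not pass the threshold. Nfkbia, which is both an inhibitor and a classical target of NF-kB, had 14.2, 12.9, 12.1 and 12.1 CPM in scramble and 14.0, 12.3, 12.8 and 12.8 CPM in Klf4 siRNA replicates 1 to 4. These values interleave, with replicate 1 highest in both groups, and the log2 fold change was -0.01 with a 95% interval of -0.14 to 0.11 (edgeR adjusted p = 0.941). Nfkbib, an IkB that is less dependent on feedback, had 25.5, 26.5, 25.2 and 26.6 CPM in scramble and 24.7, 24.5, 24.0 and 23.4 CPM in Klf4 siRNA replicates 1 to 4. All 4 treated libraries lay below all 4 controls by a small margin, and the log2 fold change was -0.10 with a 95% interval of -0.19 to -0.02 (edgeR adjusted p = 0.128). Nfkbib exons share 42 bases with Sirt2 on the opposite strand, which had 3114 to 4483 counts, and 314 bases with Ccer2, which had at most 7. Apart from Tnfaip2, every gene of the set had a 95% interval wholly above -0.95, the log2 fold change of Tnfaip2, which was chosen for its fall.

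The other genes named for induction by TNF did not follow Tnfaip2 either. Tnfaip1, an adaptor of CUL3 ubiquitin ligases, had 37.6, 38.4, 39.8 and 39.0 CPM in scramble and 38.6, 39.5, 39.5 and 39.0 CPM in Klf4 siRNA replicates 1 to 4, 0.03 higher on the log2 scale with a 95% interval of -0.04 to 0.10 (edgeR adjusted p = 0.720). Its 8 values span a narrower relative range than those of the other 9 genes, and the groups overlap. Tnfaip3, a ubiquitin-editing enzyme that shuts NF-kB signalling down, had 2.79, 2.34, 1.90 and 1.99 CPM in scramble and 3.59, 2.49, 2.01 and 2.15 CPM in Klf4 siRNA replicates 1 to 4. Replicate 1 is highest in both treatments, and the log2 fold change of 0.07 (95% interval -0.23 to 0.37, edgeR adjusted p = 0.831) was -0.07 without Klf4 siRNA replicate 1. Tnfaip8, a lipid-binding protein linked to cell survival, had 27 to 46 counts per library, at 0.546 to 0.850 CPM in scramble and 0.513 to 0.867 CPM in Klf4 siRNA libraries. Its groups overlap wholly, and the 95% interval of -0.42 to 0.39 around -0.01 on the log2 scale (edgeR adjusted p = 0.980) leaves room for changes that could not be detected at this depth.

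**Figure D3:**
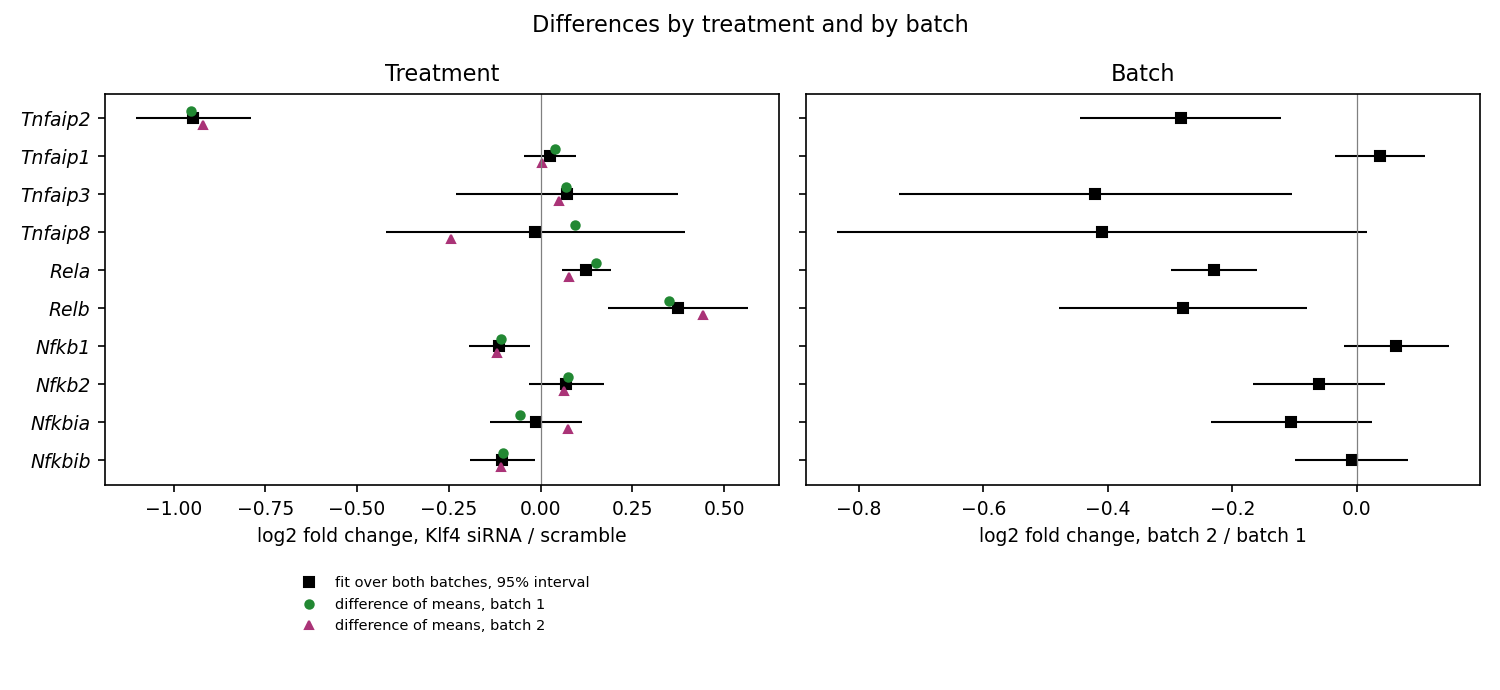
Log2 fold change of each gene by treatment (left) and by batch (right), as the fitted value with its 95% interval, with the within-batch differences of mean log2 CPM (circles batch 1, triangles batch 2) beside the treatment value. Tnfaip2 stands at -0.95 by treatment while the other 9 genes lie between -0.11 and 0.37. The treatment interval of Tnfaip2 is a description and no test, since its fall chose the gene. By batch, the intervals of Tnfaip2, Tnfaip3, Rela and Relb lie below 0.

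Batch is a contrast that did not choose Tnfaip2, and it can be tested for all 10 genes. Batch 2 was lower for 4 of them past the threshold and higher for 0, where 32.7% of all tested genes passed (15.9% lower and 16.8% higher in batch 2). Rela was lower by 0.23 on the log2 scale (log2 fold change -0.23, SE 0.03, edgeR adjusted p = 1.59e-05), with all 3 batch 2 libraries below all 5 of batch 1. Such a gap was seen for 2 of the 10, Rela and Tnfaip3, and for 29.4% of all genes. Tnfaip2 differed by -0.28 (SE 0.08, edgeR adjusted p = 0.0074), Relb by -0.28 (SE 0.09, edgeR adjusted p = 0.031) and Tnfaip3 by -0.42 (SE 0.15, edgeR adjusted p = 0.040). Tnfaip2, Rela and Relb thus shared a direction by batch and not by treatment. Of these, only Rela passed with any library left out. For Tnfaip2 it was at an adjusted p of 0.056 with scramble replicate 3 left out. For Relb it was 0.055 without Klf4 siRNA replicate 1, 0.083 without Klf4 siRNA replicate 3, and 0.206, 0.085 and 0.075 without scramble replicates 1, 3 and 4. The Relb difference was -0.17 without scramble replicate 1 and -0.33 to -0.24 in the other 4 of these cases. For Tnfaip3 it was 0.182 without Klf4 siRNA replicate 3 and 0.150, 0.104 and 0.067 without scramble replicates 1, 3 and 4, and limma-voom gave 0.053. Tnfaip1, Tnfaip8, Nfkb1, Nfkb2, Nfkbia and Nfkbib did not pass, at log2 fold changes of 0.04, -0.41, 0.06, -0.06, -0.10 and -0.01.

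Whether the treatment difference itself depended on batch was tested by the interaction term. It passed the edgeR threshold for 0 of the 10 genes and 0% of all genes; at an unadjusted p under 0.05 it passed for 0 of the 10 and for 540 genes (3.31%) in all, and limma-voom also called 0. For Tnfaip2 the interaction was 0.03 on the log2 scale with a SE of 0.17. With a single Klf4 siRNA library in batch 2, differences between batches of less than a few SE could not be detected.

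The rest of the pathway was read from lists of 102 NF-kB genes arranged from ligand to target, of which 64 were tested. An edgeR adjusted p under 0.05 was found for 6 (9.38%), 5 higher and 1 lower, near the 11.7% of all tested genes (4.88% higher and 6.81% lower), and the median log2 fold change was 0.0043. Ligands were scarce: of 10, Cd40lg and Tnfsf11 had 0 counts, Tnf had at most 5 counts in any library, and of the 2 tested 0 passed with edgeR (0 at an unadjusted p, 0 with limma-voom and with DESeq2). A count of 0 allows up to 3 counts, or 0.0467 to 0.0653 CPM in these libraries, for counting error only.

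Of 18 receptors 10 were tested and 1 passed, a share of 10% beside 11.7% of all tested genes. Tnfrsf12a, the receptor of the TNF-related ligand Tnfsf12, rose from 24.1 ± 2.83 to 26.3 ± 2.27 CPM (SD, n = 4), a log2 fold change of 0.19 with a SE of 0.05 (edgeR adjusted p = 0.0072). The treated libraries were higher within each batch; leaving out scramble replicate 1 gave an adjusted p of 0.059, dropping the batch term 0.579 and a replicate block 0.359. The log2 fold changes of the 10 ran from -0.67 to 0.30. The lowest was that of Tlr5, a receptor for bacterial flagellin with at most 30 counts in any library, which did not pass (95% interval -1.28 to -0.05, edgeR adjusted p = 0.170); its treated libraries were lower within each batch and the pooled groups overlapped. The main receptors for TNF and interleukin-1, Tnfrsf1a and Il1r1, did not pass, at log2 fold changes of 0.05 (edgeR adjusted p = 0.243) and -0.0039 (0.958).

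Between receptor and IkB, 25 of 27 adaptors and kinases were tested, and 3 rose and 1 fell, or 16.0% beside 11.7% of all tested genes. Ikbkg, the regulatory subunit of the IkB kinase, had 45.1, 49.4, 46.5 and 43.4 CPM in scramble and 56.3, 57.1, 51.8 and 54.8 CPM in Klf4 siRNA replicates 1 to 4, and the groups did not overlap. Its log2 fold change was 0.23 with a SE of 0.04 (edgeR adjusted p = 0.00018). Ikbkg exons share 418 bases with G6pdx on the opposite strand, which had 2949 to 4442 counts and differed by -0.12 on the log2 scale (edgeR adjusted p = 0.025). Traf3, an adaptor that restrains the slower branch by keeping its kinase unstable, rose from 56.1 ± 1.15 to 62.3 ± 1.58 CPM (SD, n = 4; log2 fold change 0.16, edgeR adjusted p = 0.0017), also without overlap. Ikbkg and Traf3 passed the threshold under all 17 alternatives.

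Tbk1 and Map3k7 were the other calls of this group. Tbk1, a kinase related to the IkB kinases, rose by 0.12 on the log2 scale (edgeR adjusted p = 0.022), which was between 0.050 and 0.149 without scramble replicate 1 or 2 or Klf4 siRNA replicate 1 or 3, 0.086 with library size alone and 0.159 in batch 1 alone. Map3k7, the kinase that activates the IkB kinase, fell by 0.10 on the log2 scale (edgeR adjusted p = 0.015), with adjusted p-values of 0.085, 0.098 and 0.060 without scramble replicate 1, scramble replicate 2 and Klf4 siRNA replicate 3. The Map3k7 difference itself stayed at -0.11 to -0.10 in these 3 cases, and its treated libraries lay below the controls overall and within each batch. The log2 fold changes of the 25 ran from -0.61 to 0.23. Traf5, an adaptor of TNF family receptors with at most 54 counts in any library, was lowest, with 0.745 ± 0.135 CPM in the controls and 0.445 ± 0.105 CPM in the treated libraries (SD, n = 4). It did not pass (95% interval -1.02 to -0.20, edgeR adjusted p = 0.051), with the treated libraries lower within each batch and the pooled groups overlapping. With no batch term Tbk1 was at 0.341 and Map3k7 at 0.091. The catalytic subunits Chuk and Ikbkb did not pass (log2 fold changes -0.01 and 0.03).

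All 7 further Rel and IkB family genes were tested, and 0 passed with edgeR, limma-voom or DESeq2, with 1 at an unadjusted p under 0.05 (11.7% and 23.9% over all tested genes). Their log2 fold changes ran from -0.06 to 0.20. Of 11 other brakes on the pathway 10 were tested and 1 passed, also 10% beside the general 11.7%. That gene, Tax1bp1, a ubiquitin-binding partner of Tnfaip3, rose by 0.11 on the log2 scale (edgeR adjusted p = 0.025). Its adjusted p was 0.150 and 0.185 without scramble replicates 1 and 2 and 0.058 without Klf4 siRNA replicate 2, 0.155 with no batch term and 0.054 with a replicate block. Cyld, a deubiquitinase that opposes the pathway, did not pass (log2 fold change -0.08, edgeR adjusted p = 0.086).

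Most textbook NF-kB targets had too few counts to be tested. Of 29, 10 had enough counts, and 0 passed with edgeR, limma-voom or DESeq2, with 2 at an unadjusted p under 0.05 (over all tested genes 11.7% passed and 23.9% were at that unadjusted p, so a list of 10 would hold few calls at the general share). Their log2 fold changes ran from -0.18 to 0.23, with 5 above and 5 below 0, and their median was -0.0041. Il6, Ccl5, Ccl20, Csf2, Cxcl5 and Bcl2a1b had 0 counts in all 8 libraries. The highest count in any library was 13 for Cxcl1, 19 for Cxcl10 and 12 for Icam1.

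**Figure D4:**
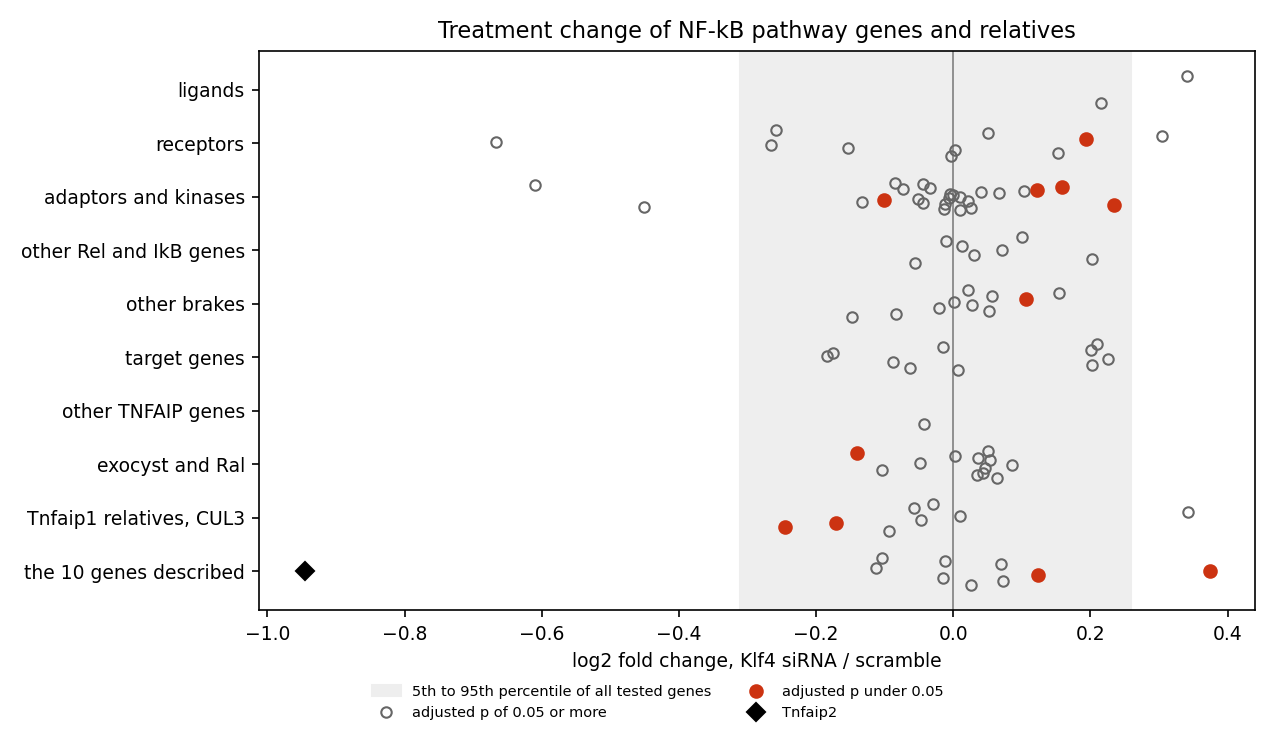
Log2 fold change between treatments for each tested gene of the pathway lists and of the 10 genes described, filled where the edgeR adjusted p was under 0.05, over a band from the 5th to the 95th percentile of all tested genes (-0.31 to 0.26). Tnfaip2, the diamond at -0.95, lies far below the band and Relb at 0.37 above it, and the 9 filled points of the lists lie inside it. Some open points of the lists also lie outside it on both sides, down to -0.67 (Tlr5) and up to 0.34.

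Relatives and partners of 2 TNFAIP proteins were listed too, beside 4 further TNFAIP genes, of which 1 was tested and 0 passed (0 at an unadjusted p, 0 with limma-voom and DESeq2). Of 14 exocyst, Sec6-related and Ral genes, kin and partners of Tnfaip2, 12 were tested and 1 passed, or 8.33% beside 11.7% of all tested genes. Rala, a GTPase that binds the exocyst, fell from 65.6 ± 3.38 to 58.4 ± 1.97 CPM (SD, n = 4), a log2 fold change of -0.14 with a SE of 0.03 (edgeR adjusted p = 0.0028, and 0.054 in batch 1 alone and 0.084 without the batch term). The groups did not overlap. The other 11 did not pass, among them Exoc3, the mouse Sec6 gene itself (log2 fold change 0.04, edgeR adjusted p = 0.437).

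Of 8 genes around Tnfaip1 all were tested and 2 fell, where 6.81% of all tested genes fell; nothing particular to so short a list is read from this. Both encode close relatives of the Tnfaip1 protein. Kctd10 had 52.8, 53.9, 52.9 and 52.5 CPM in scramble and 42.3, 43.6, 47.2 and 44.7 CPM in Klf4 siRNA replicates 1 to 4, a log2 fold change of -0.25 with a SE of 0.03 (edgeR adjusted p = 5.93e-05). The groups did not overlap, and the gene passed under all 17 alternatives. Kctd13 fell from 48.3 ± 4.34 to 41.3 ± 3.09 CPM (SD, n = 4; log2 fold change -0.17, edgeR adjusted p = 0.0027), with an adjusted p of 0.072 with a replicate block and 0.166 without the batch term. Kctd13 exons share 65 bases with Asphd1 on the opposite strand, which had 1464 to 1874 counts. Tnfaip1 and these relatives encode adaptors for Cul3, which did not pass (log2 fold change -0.09, edgeR adjusted p = 0.065).

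The genes most like Tnfaip2 across the 8 libraries were ranked by Pearson's r of log2 CPM over 12721 other genes with a mean of at least 1 CPM. The 5 highest were Egln2, Klhl24, Dnlz, Cdk2ap1 and Nudt21, with r from 0.976 to 0.986. Klhl24, for example, had 57.9, 58.1, 50.4 and 50.9 CPM in scramble and 38.1, 39.8, 36.8 and 37.6 CPM in Klf4 siRNA replicates 1 to 4, so that, as for Tnfaip2, all treated libraries and, within each treatment, the batch 2 libraries were low. Of the 9 others, Nfkbib was highest with r = 0.890 (place 247), followed by Nfkb1 at 0.702 (place 1066). Nfkbia and Tnfaip3 were near 0 (0.076 and -0.046), and Rela, Tnfaip1, Nfkb2 and Relb were negative (-0.38, -0.53, -0.59 and -0.62). With batch means taken out, Nfkbib was at 0.906 (place 631) and Nfkb1 at 0.900 (place 697), and Tnfaip1, Nfkb2, Relb and Rela were at -0.63, -0.80, -0.82 and -0.86, so that Rela was then the most negative of the 8 ranked. Tnfaip8, with a mean of 0.705 CPM, was not ranked. These values describe 8 libraries that share 2 treatments and 2 batches, and have no p. Since Tnfaip2 was chosen by its treatment difference, r with it in part restates the direction of each gene's own treatment difference.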

How the data were processed

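Poly(A) RNA of alphaTC6 cells was sequenced in 8 libraries, 4 per treatment, with a Tecan library kit per the labels' protocols, which also mention isolated islets. The authors deposited raw counts per gene as whole numbers; the submitters' processing notes name FastQC, STAR, featureCounts, DESeq2 and mm10, without versions or roles. The use of strand is not given in the sources used here. All 55536 identifiers and symbols matched GENCODE release 21 of the mouse (GRCm38). Columns not mapped to a sample: 0.

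Genes were kept with filterByExpr, scaled by TMM (factors 0.964 to 1.02) and fitted with batch and treatment in edgeR 4.0.16 (R 4.3.3, robust quasi-likelihood, 5 residual degrees of freedom), the series' design text naming edgeR with batch correction. P-values are two-sided and Benjamini-Hochberg adjusted over all 16333 genes, with a threshold of 0.05; SE was taken as |log2 fold change|/√F. Within-batch values are differences of mean log2 CPM (prior count 2). Genes of a list were named when past the threshold, up to 6 per list by smallest adjusted p, with all 10 members and the 5 genes most like Tnfaip2; Tnfrsf1a, Il1r1, Tlr5, Traf5, Chuk, Ikbkb, Cyld, Exoc3, Cul3, Psd, AC114539.1, Sirt2, Ccer2, G6pdx, Asphd1, Ikbke, Il1b and the genes named for low counts were added after their values were seen. Alternatives were DESeq2-style size factors, library size alone, DESeq2 1.42.0, limma-voom (limma 3.58.1), other filters, no batch term, batch 1 alone, a replicate block and each library left out. The members, lists and tests were chosen with earlier results of these data known. Calls of single cell type markers are not reported here.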

Additional observations from a re-analysis of the deposited data

How the results depend on the processing

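With no batch term the genes called between treatments went from 1909 to 409, that of the 9 genes beside Tnfaip2 from 2 to 0 and that of the pathway lists from 9 to 3. Batch 1 alone gave 1232 genes, 1 of the 9, and a replicate block in place of batch gave 1220. Same-numbered libraries deviated from their treatment means at r = 0.492, 0.416 and 0.720 for replicates 1 to 3 and -0.34 for replicate 4. Batch was not taken out of these deviations. Replicates 1 to 3 shared a batch between treatments and replicate 4 did not, so r cannot show whether the numbers mark pairs. The numbers were not taken as pairs. With each library left out in turn, the counts ran from 934 to 2021 for treatment, from 0 to 2 for the 9 genes, from 5 to 12 for the lists, from 3843 to 6210 for batch and from 0 to 13 for the interaction, which could not be fitted without Klf4 siRNA replicate 3, the single treated library of batch 2. The interaction count of 0 became 17 with no filter; none of these genes was among the 10 or the lists. Tnfaip2 stayed between -0.98 and -0.88 on the log2 scale under all 17 alternatives. Values near 0 changed sign without passing the threshold. By treatment, Tnfaip8 was 0.095 with no batch term, 0.098 in batch 1 alone and 0.083 with the replicate block, and -0.17 to 0.10 with a library left out; Nfkbia was 0.014 and 0.016 with no batch term and with the block, and -0.0605 to 0.045 with a library left out; Tnfaip3 was -0.073 to 0.16 with a library left out. By batch, Tnfaip1 was -0.00019 with library size alone and Nfkbib 0.0032 at 5 CPM or more on average and -0.0297 to 0.0081 with a library left out. With batch means taken out, 0 of the 5 genes most like Tnfaip2 were shared. In each case the cause was not tested. Among the 10 genes Tnfaip8 had the fewest counts, 27 to 46 per library.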

Other observations

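Of the 64 tested genes of the NF-kB lists, 30 passed the edgeR threshold between batches (14 higher and 16 lower in batch 2) and 6 between treatments. Over all tested genes, too, more passed by batch (32.7%) than by treatment (11.7%). Ikbke, an IkB kinase relative that can be induced by NF-kB, stood at 1.61 and 1.72 CPM in the controls and 1.28, 1.37 and 1.32 CPM in the treated libraries of batch 1. The batch 2 levels were 0.655 and 0.794 CPM for the controls and 0.380 CPM for the treated library, a batch log2 fold change of -1.38 (edgeR adjusted p = 2.10e-06). By treatment its log2 fold change was -0.45 (edgeR adjusted p = 0.065), and the treated libraries were lower within each batch. Il1b, the gene of the cytokine interleukin-1 beta, went the other way by batch, with 4 to 12 counts in the libraries of batch 1 and 30 to 37 counts in those of batch 2 (batch log2 fold change 2.25, edgeR adjusted p = 8.53e-06). Its receptor gene Il1r1 was abundant throughout, at 564.8 to 580.7 CPM in batch 1 and 627.6 to 652.8 CPM in batch 2. These genes were picked after their values were seen.

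The ratio of Nfkb2 to Nfkb1 counts within a library needs no scaling between libraries. The control libraries, replicates 1 to 4, gave 0.558, 0.545, 0.516 and 0.496, and the treated libraries, replicates 1 to 4, gave 0.625, 0.604, 0.575 and 0.651, so every treated library lay above every control, although neither gene passed the threshold alone. The ratios of Relb to Rela (0.0645 to 0.0806 in control and 0.0786 to 0.092 in treated libraries) and of Nfkbia to Rela (0.147 to 0.157 and 0.127 to 0.155) overlapped. These 3 ratios were formed after the values were seen and have no test, and the share of all gene pairs that separate the groups was not computed. Nfkb2 shares exon bases with Psd on the opposite strand.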
